A study of Macaca mulatta with 12 samples.

Results

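Microglia are the resident macrophages of the brain, and related macrophages line its vessels and membranes. They survey the tissue through receptors such as P2RY12 and CX3CR1, depend on the growth factor receptor CSF1R, and clear debris with the help of the lipid-sensing receptor TREM2 and its adaptor TYROBP. Microglia are also the main brain source of C1q, the protein that starts the classical complement cascade and tags synapses and cells for removal. A list of 47 genes of these cells and of complement was followed here in the dorsal raphe, the midbrain region known for its serotonin neurons. A gene was a member if the gene table of the array paired its symbol with a probe set. That was so for 37 of the 47, out of 14132 genes with such a probe set. Of the 37, 30 were bright enough to be tested, out of 9959 genes tested.

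The samples were dorsal raphe blocks of 12 female rhesus macaques (Macaca mulatta), measured on 1 array per animal, so the replicates are separate animals. The 4 groups of 3 animals had carried Silastic capsules under the skin between the shoulders for 1 month. These held placebo, estrogen alone, progesterone alone, or both hormones together (the combined treatment, estrogen plus progesterone). The labels give neither a capsule dose nor an age. The placebo labels carry the code OVX, read as ovariectomized, and no other group carries it, so whether the hormone-treated animals were ovariectomized is not given. The progesterone titles carry the code EP but their descriptions carry P, and these arrays were taken as progesterone alone. The question for these genes was what either hormone alone does beside the 2 together: the combined treatment against estrogen shows what progesterone adds, and the combined treatment against progesterone shows what estrogen adds.

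Values are log2 intensity, the brightness of a probe set on the array, so a difference of 1 is a doubling. Levels of different genes cannot be set against each other on this scale. Each gene was read on its brightest probe set. Of 7 markers of serotonin neurons, 5 were in the table and all 5 were bright enough to be tested. TPH2 had a mean of 7.31 but ran from 4.66 to 8.85 over the arrays. FEV had a mean of 9.47 and ran from 8.85 to 10.1. The ranges were narrower for SLC18A2 (9.34 to 10.86), GATA2 (6.71 to 7.78) and GATA3 (8.99 to 9.58) than for TPH2. Whether the blocks held like shares of serotonin neurons was not tested. On the first principal component, array 1 of the placebo group, of the estrogen group and of the combined group lay apart from the remaining 9 (-51.6 to -44.0 beside -1.64 to 29.0), so member medians are also given without them. For the control transcript EF1A, the log2 signal at the 3′ end less that at the 5′ end was -0.37 to -0.31 under progesterone. On the remaining 9 arrays it was -0.08 to 0.74. The 2 other such controls did not share this: GAPDH gave 0.11 to 0.59 under progesterone beside 0.34 to 1.11. Actin leaned the other way, at 0.66 to 1.23 beside 0.11 to 0.90, and both overlapped. The part of these differences in the results was not tested. The arrays come from whole tissue, in which fewer cells of a type and less RNA per cell cannot be told apart.

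Most microglial genes of the list were measured above the background of the array. All 30 tested members had a mean above 6.41, the highest mean of 23 control probe sets for sequences that were not added to the sample. The 7 members in the table that were too dim to test were CD86 (mean 6.18), DOCK8 (5.90), VSIG4 (5.75), NCF1 (5.47), FCGR3 (4.67), TMEM119 (4.61) and TLR2 (3.64). TMEM119, a membrane protein often used to tell microglia from blood macrophages, thus lay below the next brightest of these controls (5.13). The other 10, not analysed here since the table did not pair their symbols with a probe set, were P2RY13, ITGAX, CD163, SPI1, C3, C3AR1, FCGR1A, FCER1G, LAPTM5 and SALL1.

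No member passed the test in either comparison, while most lay lower under both hormones than under 1. Against progesterone, 21 of 30 members were lower with estrogen added (70%, beside 48.9% of all probe sets), with a median log2 difference of -0.21 beside 0.0077 over all probe sets. That median was -0.07 without the second progesterone array (19 of 30 lower) and also without the third array of the combined group (18 of 30). Against estrogen, 22 of 30 were lower with progesterone added (73.3%, beside 50.1%), with a median of -0.11 beside -0.00039. The limma model called 0 members in each, at a Benjamini-Hochberg adjusted p under 0.05. It called 22 of 26383 probe sets (0.0834%) in the comparison with progesterone and 0 (0%) in that with estrogen. At an unadjusted p under 0.05, 4 of 30 members were lower against progesterone (13.3%, beside 5.37% of all probe sets lower and 11.4% in either direction) and 0 against estrogen (beside 2.98%). All members are read in the same animals and are not independent of each other. Both comparisons use the same 3 arrays of the combined treatment.

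**Figure D1:**
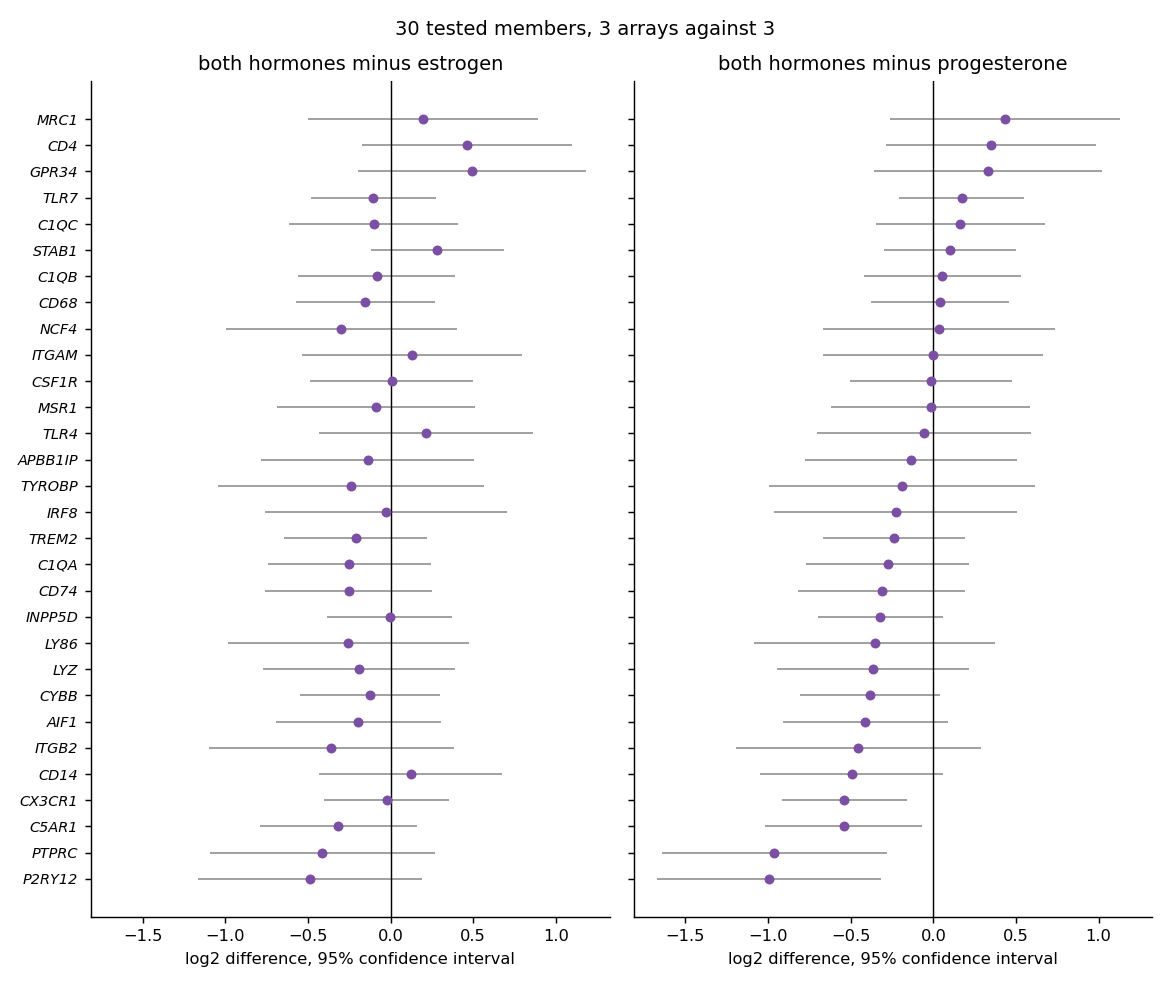
Log2 difference of each of the 30 tested members between the combined treatment and estrogen (left) or progesterone (right). Points are the limma estimates from 3 arrays against 3, lines are 95% confidence intervals, and genes are ordered by the right panel. In the right panel 21 points lie left of 0 and the intervals of P2RY12, PTPRC, C5AR1 and CX3CR1 do not cross it, while in the left panel 22 points lie left of 0 and every interval crosses it.

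P2RY12 and CX3CR1, receptors by which microglia survey the tissue, had lower means under both hormones than under progesterone alone, and neither passed the test. P2RY12, the ADP receptor that steers microglial processes to injury, had log2 intensities of 9.15, 9.87 and 10.14 in the progesterone arrays and 9.18, 8.89 and 8.10 in the arrays of both hormones. It stood at 9.29, 9.12 and 9.24 under estrogen and at 9.94, 9.47 and 9.25 under placebo. The third array of the combined treatment was the lowest of all 12, and the first lay just above the lowest progesterone array, so these groups overlapped. The difference from progesterone was -0.99 ± 0.31 (SE, 95% confidence interval -1.67 to -0.32), or 1.99-fold lower, with an unadjusted p of 0.00773 and a limma adjusted p of 0.278. The difference from estrogen was -0.49 (-1.16 to 0.19). Without the third combined-treatment array these values were -0.68 and -0.18.

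CX3CR1, the receptor for the neuronal chemokine CX3CL1, had the tightest progesterone values of this group. They were 7.96, 7.93 and 7.79, beside 7.19, 7.61 and 7.27 under both hormones, 7.69, 7.23 and 7.22 under estrogen, and 7.49, 7.47 and 7.64 under placebo. All 3 progesterone arrays thus lay above all 9 others. The combined treatment differed from progesterone by -0.54 ± 0.17 (-0.92 to -0.16), with an unadjusted p of 0.00909 and a limma adjusted p of 0.291, and from estrogen by -0.02 (-0.40 to 0.35). The gene has only 1 probe set in the table. Leaving out any 1 array kept the difference from progesterone between -0.67 and -0.46.

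CSF1R and GPR34, also expressed by resting microglia, gave differences from progesterone near 0 and above it. CSF1R, the receptor that keeps microglia alive, stood at 9.54, 8.97 and 8.77 under both hormones, 9.01, 9.29 and 9.02 under progesterone, and 9.16, 9.04 and 9.06 under estrogen. Its arrays overlapped, and the differences were -0.01 (-0.51 to 0.48) from progesterone and 0.006 (-0.49 to 0.50) from estrogen. Median alignment of the arrays turned these signs, to 0.06 and -0.09. GPR34, a lysophosphatidylserine receptor of microglia, went the other way: 10.91, 10.14 and 10.30 under both hormones, 9.35 to 10.61 under progesterone and 9.72 to 10.28 under estrogen. The groups overlapped, with a difference of 0.49 (-0.20 to 1.18) from estrogen and 0.33 (-0.36 to 1.02) from progesterone. Without the third progesterone array the latter was -0.05.

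**Figure D2:**
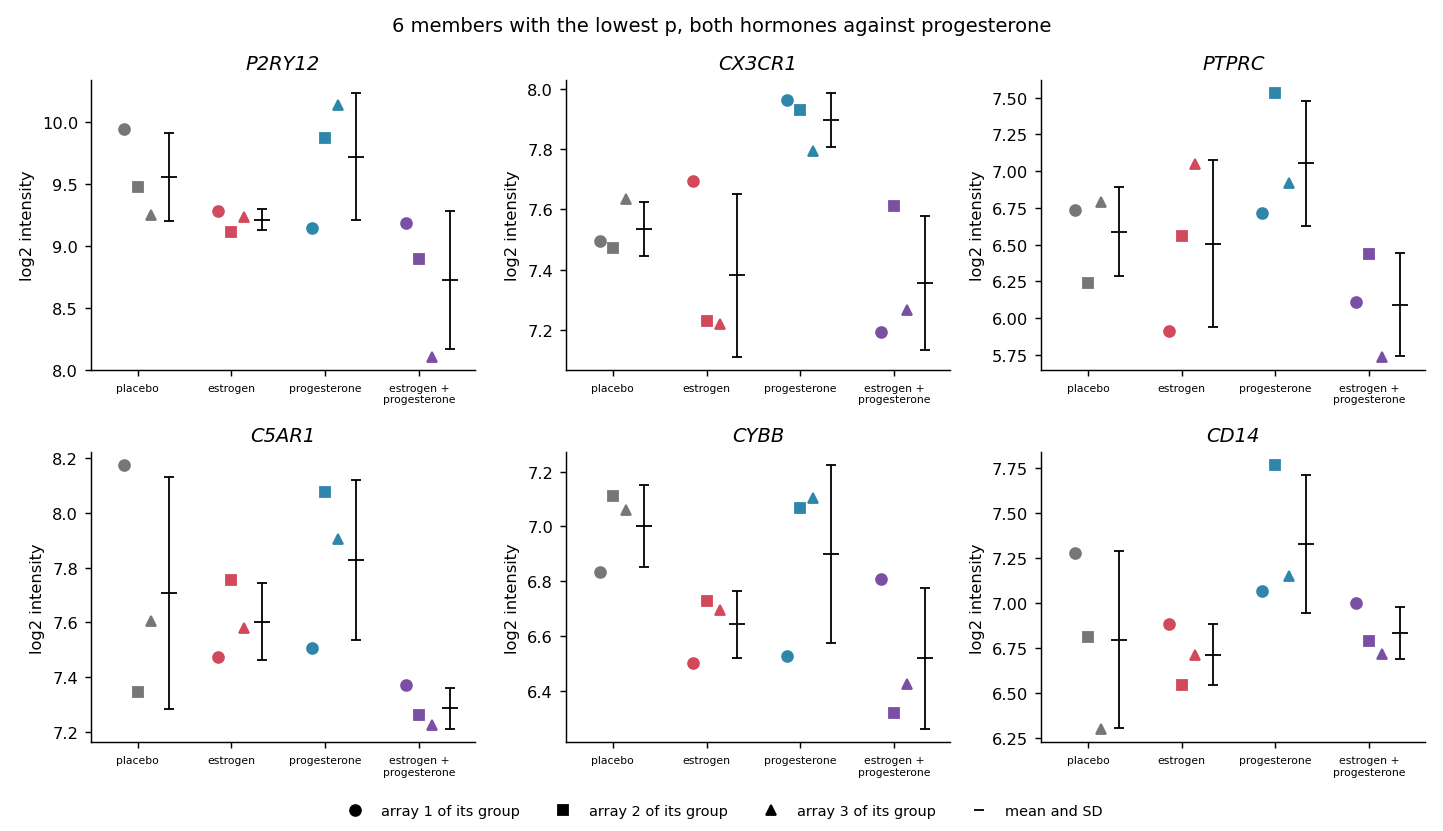
Log2 intensity of the 6 members with the lowest p in the combined treatment against progesterone, by array (symbols, numbered within the group) with group mean and SD (n = 3). The arrays of both hormones lie below all progesterone arrays for CX3CR1, PTPRC, C5AR1 and CD14, and overlap them for P2RY12 and CYBB.

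Among the surface and signalling proteins that microglia share with blood leukocytes, PTPRC showed a difference of nearly the same size as P2RY12. It codes for CD45, the tyrosine phosphatase on all white blood cells. Its values were 6.11, 6.43 and 5.73 under both hormones, 6.71, 7.53 and 6.92 under progesterone, 5.91, 6.56 and 7.05 under estrogen, and 6.73, 6.24 and 6.79 under placebo. All arrays of both hormones lay below all progesterone arrays but overlapped the estrogen arrays. The difference from progesterone was -0.96 ± 0.31 (-1.64 to -0.28), with an unadjusted p of 0.00975 and a limma adjusted p of 0.294, and that from estrogen was -0.41 (-1.10 to 0.27). This is a dim probe set: the mean under both hormones, 6.09, lay below the 6.41 of the brightest control for absent sequences. Without the second progesterone array the difference from progesterone was -0.72.

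CD14, the coreceptor for bacterial lipopolysaccharide, stood at 6.999, 6.79 and 6.72 under both hormones and at 7.07, 7.77 and 7.15 under progesterone. Estrogen gave 6.89, 6.54 and 6.71, and placebo 7.28, 6.81 and 6.30. The progesterone arrays lay above those of both hormones, though the first of each were close. The combined treatment differed from progesterone by -0.49 (-1.05 to 0.06) and from estrogen by 0.12 (-0.43 to 0.67). The former was -0.27 without the second progesterone array and the latter 0.04 without the second estrogen array. AIF1, the calcium-binding protein IBA1 that is stained to show microglia, was at 7.54, 7.83 and 7.62 under both hormones, 7.64, 8.25 and 8.33 under progesterone, and 8.24, 7.58 and 7.76 under estrogen. The groups overlapped, with differences of -0.41 (-0.91 to 0.09) from progesterone and -0.20 (-0.69 to 0.30) from estrogen. CD4, found on macrophages as well as helper T cells, was higher under both hormones, at 7.93, 7.62 and 7.19, than the mean of estrogen, whose arrays spread from 6.43 to 7.69. The difference from estrogen was 0.46 (-0.17 to 1.10), and 0.12 without the third estrogen array. CD4 was also higher than under progesterone (6.97, 7.24 and 7.49), by 0.35 (-0.29 to 0.98), with arrays that overlapped. Its arrays of both hormones lay above all placebo arrays (7.10, 7.05 and 7.05), with a difference of 0.51 (-0.12 to 1.15).

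INPP5D, the lipid phosphatase SHIP1 of immune cells, was also lower in every array of both hormones (8.52 to 8.66) than in every progesterone array (8.68 to 9.16), with a difference of -0.32 (-0.70 to 0.06). It is named because its arrays did not overlap, after its values were seen. In all, 5 of 30 members lay below the whole progesterone range (16.7%, beside 8.6% of all probe sets): CX3CR1, CD14, PTPRC, C5AR1 and INPP5D. One, MRC1, lay above it (3.33%, beside 8.4%). Against estrogen, 2 lay below the whole range (6.67%, beside 4.05%), C1QA and C5AR1, and 0 above it (beside 4.04%).

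The TREM2 and TYROBP pair, receptor and adaptor of microglial phagocytosis, had values that spread widely within groups. TYROBP ran from 8.18 to 9.67 among the 3 progesterone arrays, from 8.43 to 9.31 under both hormones, from 8.89 to 9.08 under estrogen and from 8.58 to 9.51 under placebo. Its differences were -0.19 (-0.99 to 0.62) from progesterone and -0.24 (-1.05 to 0.57) from estrogen. The widest interval of any member was this one. The second progesterone array, the highest of all 12, decided the sign: without it the difference from progesterone was 0.19. TREM2 gave 7.54, 7.33 and 7.24 under both hormones, 7.23, 7.95 and 7.64 under progesterone, and 7.59, 7.43 and 7.71 under estrogen. The arrays overlapped, with differences of -0.24 (-0.67 to 0.19) from progesterone, which was -0.07 without its second array, and -0.21 (-0.64 to 0.22) from estrogen.

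**Figure D3:**
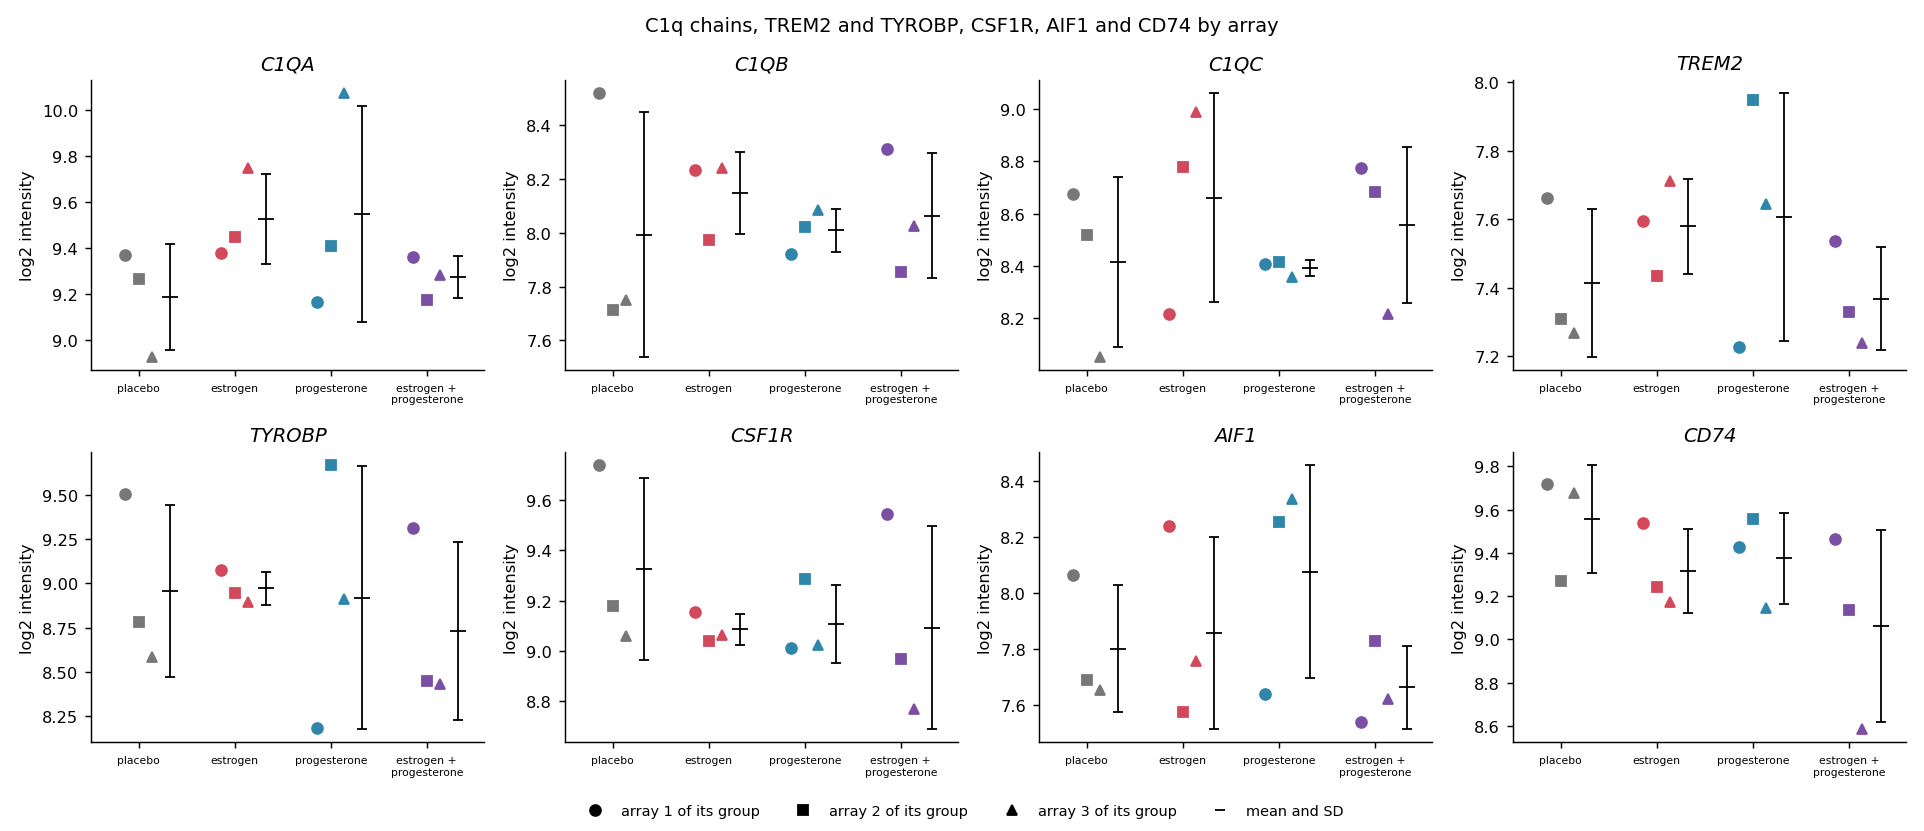
Log2 intensity of the C1q chains, TREM2, TYROBP, CSF1R, AIF1 and CD74 by array (symbols, numbered within the group) with group mean and SD (n = 3). The groups overlap in each panel except for C1QA, where the 3 arrays of both hormones lie below the 3 estrogen arrays by a small margin.

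Among the tested complement members were the 3 chains of C1q and the receptor C5AR1. The A, B and C chains of C1q are assembled into 1 protein, and their genes neighbour one another in the rhesus gene table. C1QA stood at 9.36, 9.18 and 9.28 under both hormones, 9.38, 9.45 and 9.75 under estrogen, 9.17, 9.41 and 10.07 under progesterone, and 9.37, 9.27 and 8.93 under placebo. The estrogen arrays lay above those of both hormones and of placebo, narrowly at the closest values (9.38 beside 9.36 and 9.37). Its differences were -0.25 (-0.75 to 0.24) from estrogen and -0.28 (-0.77 to 0.22) from progesterone. C1QB differed by -0.08 (-0.56 to 0.39) and 0.06 (-0.42 to 0.53), and C1QC by -0.10 (-0.61 to 0.41) and 0.16 (-0.35 to 0.68). In C1QC the progesterone arrays were tight (8.36 to 8.42) while those of both hormones (8.22 to 8.77) and estrogen (8.22 to 8.99) were spread around them. All 3 intervals against progesterone included 0. The C1QA value was -0.01 without the third progesterone array, and the C1QB value was -0.07 without the first array of the combined treatment.

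C5AR1, the receptor through which the complement fragment C5a draws in phagocytes, had the lowest p of the complement members in both comparisons. Its values were 7.37, 7.26 and 7.22 under both hormones, 7.51, 8.08 and 7.91 under progesterone, 7.48, 7.75 and 7.58 under estrogen, and 8.17, 7.35 and 7.61 under placebo. The arrays of both hormones lay below every array given 1 hormone, and overlapped placebo through its second array. The difference was -0.54 ± 0.22 (-1.02 to -0.07) from progesterone, with an unadjusted p of 0.0285 and a limma adjusted p of 0.375, and -0.32 (-0.79 to 0.16) from estrogen. It has 1 probe set. Leaving out any 1 array kept the first value between -0.70 and -0.42.

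A further list held 29 complement components, regulators and receptors outside the members, of which 9 were tested. With estrogen added to progesterone 0 passed the test, 6 were higher and 3 lower, with a median of 0.04. With progesterone added to estrogen 0 passed, 6 were higher and 3 lower, with a median of 0.05. The 2 of 9 that were lower at an unadjusted p under 0.05 (beside 5.37% of all probe sets), named after their values were seen, were CFI, the protease that inactivates C3b (-0.56 against progesterone, limma adjusted p 0.356), and CFD, the factor D protease of the alternative pathway (-0.50, adjusted p 0.417).

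Genes of microbial killing were measured by the oxidase subunits and lysozyme. CYBB, the membrane subunit of the NADPH oxidase that makes superoxide, stood at 6.81, 6.32 and 6.42 under both hormones, 6.53, 7.07 and 7.10 under progesterone, 6.50, 6.73 and 6.70 under estrogen, and 6.83, 7.11 and 7.06 under placebo. Both hormones lay below the whole placebo range but overlapped each hormone alone. The differences were -0.38 (-0.81 to 0.04) from progesterone and -0.12 (-0.55 to 0.30) from estrogen. The other tested CYBB probe set gave 0.10 from progesterone and -0.07 from estrogen. Its cytosolic partner NCF4 differed by 0.03 from progesterone, and the lysozyme gene LYZ by -0.36 (-0.94 to 0.22).

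Genes of activated phagocytes outside the members formed a further list. Of 15 listed, 12 were tested, and 9 were lower under both hormones than under progesterone, with a median of -0.22 (beside 48.9% lower and a median of 0.0077 over all probe sets). None of them passed the adjusted threshold, and 3 of 12 were lower at an unadjusted p under 0.05, beside 5.37% of all probe sets. Those 3, named after their values were seen, were CTSS, the lysosomal protease cathepsin S that processes the invariant chain (-0.93, limma adjusted p 0.172), CTSZ, another cathepsin (-0.996, 0.432), and GPNMB, a glycoprotein of lipid-laden phagocytes (-0.47, 0.311). APOE, the lipid carrier, went the other way at 0.33. The mean of CTSZ was 6.32, just above the testing cut-off of 6.31 and below the brightest control for absent sequences (6.41). CTSZ passed that cut-off only through its progesterone arrays (6.40, 7.73 and 6.80), the group it is compared with. Its place among the 3 was therefore not independent of the filter. Against estrogen the median of the list was -0.04, with 8 of 12 lower.

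Of the scavenger receptors of perivascular and other macrophages, STAB1 and MRC1 had higher means under both hormones than under either alone. STAB1, which takes up modified proteins, stood at 7.27, 7.44 and 7.79 under both hormones, 7.02, 7.22 and 7.41 under estrogen, and 7.36, 7.17 and 7.67 under progesterone. The groups overlapped, with differences of 0.28 (-0.12 to 0.68) from estrogen and 0.10 (-0.30 to 0.50) from progesterone. The latter turned to -0.04 without the third combined-treatment array. MRC1, the mannose receptor CD206, named after its values were seen, was at 9.999, 9.79 and 10.12 under both hormones, 9.49, 9.72 and 9.40 under progesterone, and 9.94, 9.88 and 9.50 under estrogen. The arrays of both hormones lay above all progesterone arrays, with a difference of 0.44 (-0.26 to 1.13). The scavenger receptor MSR1 differed by -0.02 from progesterone and by -0.09 from estrogen, so these 3 genes did not share a direction.

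Antigen presentation was represented by CD74, the invariant chain that guards class II histocompatibility molecules. Its values were 9.46, 9.14 and 8.59 under both hormones, 9.43, 9.55 and 9.14 under progesterone, 9.54, 9.24 and 9.17 under estrogen, and 9.72, 9.27 and 9.68 under placebo. The third array of the combined treatment was the lowest of the 12. The differences were -0.31 (-0.82 to 0.19) from progesterone and -0.25 (-0.76 to 0.25) from estrogen, and -0.07 and -0.02 without that array. Of 11 class II genes listed beside the members, 5 were tested. Both hormones gave lower means in 4 of the 5 against progesterone (median -0.67) and in 4 of 5 against estrogen (median -0.35), and 0 passed in either. MAMU-DRA, the alpha chain of the DR molecule, read 8.07, 8.69 and 7.52 under both hormones beside 9.24, 9.21 and 7.89 under progesterone, with a difference of -0.69 and a limma adjusted p of 0.560. MAMU-DOA, which restrains peptide loading, was the exception, at 0.52 against progesterone and 0.53 against estrogen. In both comparisons it was the only 1 of the 5 at an unadjusted limma p under 0.05 (20%, beside 11.4% and 2.98% of all probe sets). It was also the only 1 whose arrays did not overlap (20% above, beside 8.4% and 4.04%). Of the genes with lower means, 0 reached that p and 0 lay below the whole range of either hormone.

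Further lists covered the signals around microglia. Of 17 tested genes for ligands, checkpoint and survival signals, 8 were lower under both hormones than under progesterone (median 0.0068), and 9 of 17 than under estrogen (median -0.03), with 0 past the test on the brightest probe set. CX3CL1, the ligand of CX3CR1, differed by 0.62 from progesterone (limma adjusted p 0.609), and TGFBR1, a receptor of the growth factor that maintains microglial identity, by -0.47 (adjusted p 0.289). At an unadjusted limma p under 0.05 against progesterone, 2 of the 17 were lower, TGFBR1 and PROS1 (-0.58, adjusted p 0.337). Another 1, PLCG2, was higher (0.45, adjusted p 0.305). These made 17.6% of the list, beside 11.4% of all probe sets. Of 10 tested cytokine and NF-kappa-B genes, 3 were lower than under progesterone (median 0.06) and 2 than under estrogen (median 0.08), and 0 passed. CCL3, a chemokine of activated microglia, differed by -0.53 from progesterone (adjusted p 0.351), and NFKB1 by 0.0087. The mean of CCL3 was 6.44, near the testing cut-off of 6.31. CCL3 passed that cut-off only through its progesterone arrays (7.18, 6.60 and 6.91), so its difference from progesterone was not independent of the filter. CFI, TGFBR1, PROS1, PLCG2, CCL3 and CX3CL1 fell outside the rule for named genes.

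Other cell types were followed for comparison, by the summed intensity of their tested markers. In such a sum the brightest probe sets weigh most, so it was not read as a count of cells. For the 5 neuron markers the sums were 15562 to 16520 under both hormones, 15084 to 17032 under progesterone and 16122 to 18702 under estrogen. The 7 astrocyte markers gave 27426 to 34451, 29987 to 32097 and 28103 to 30844, and the 7 oligodendrocyte markers 25381 to 26170, 23300 to 27785 and 22464 to 25821. For these lists the range under both hormones overlapped the range under progesterone. Lower than under progesterone were 2 of 5 neuron markers (median 0.095), 3 of 7 astrocyte markers (median 0.12) and 1 of 7 oligodendrocyte markers (median 0.05). So were 3 of 6 cerebellar neuron markers (median 0.03) and 3 of 5 of endothelium and pericytes (median -0.11), beside a member median of -0.21. Against estrogen, 4 of 5 neuron markers were lower under both hormones (median -0.12), as were 4 of 6 cerebellar neuron markers (median -0.32) and 4 of 5 of endothelium and pericytes (median -0.08), while all 7 oligodendrocyte markers were higher (median 0.10). The neuron median against estrogen lay close to that of the members (-0.11), and the part of tissue makeup in either comparison was not tested. Few genes listed for blood cells were bright enough to be tested: VCAN, listed for monocytes, HBB and ALAS2 for red cells, and CD8A and CD79B for lymphocytes. No neutrophil marker was among them. Whether their signal in this tissue came from blood cells was not tested, least of all for VCAN, which is not confined to them. Their differences from progesterone were -0.22 for VCAN, -0.44 for HBB, -0.17 for ALAS2, -0.43 for CD8A and -0.04 for CD79B. The part of blood cells in the members' values was not tested. The summed intensity of the 30 members was 12552 to 14528 under both hormones, 13834 to 14706 under progesterone, 13201 to 14252 under estrogen and 12927 to 14536 under placebo.

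Single arrays stood out across the members. The first placebo array and the second progesterone array each held the highest value of 7 of the 30 members, and lay above a member's own mean in 23 and 21 of them. The third array of the combined treatment held the lowest value of 7, was among the lowest 3 for 15 and lay above the mean in only 6. By group means, the combined treatment was lowest of the 4 for 15 of 30 members and progesterone highest for 12. Without the first progesterone array the median difference from progesterone was -0.34. Against estrogen, the median was -0.03 without the first estrogen array, with 17 of 30 lower, and -0.07 without the third combined-treatment array. With the 3 arrays apart on the first component left out, the medians were -0.27 against progesterone and -0.11 against estrogen.

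**Figure D4:**
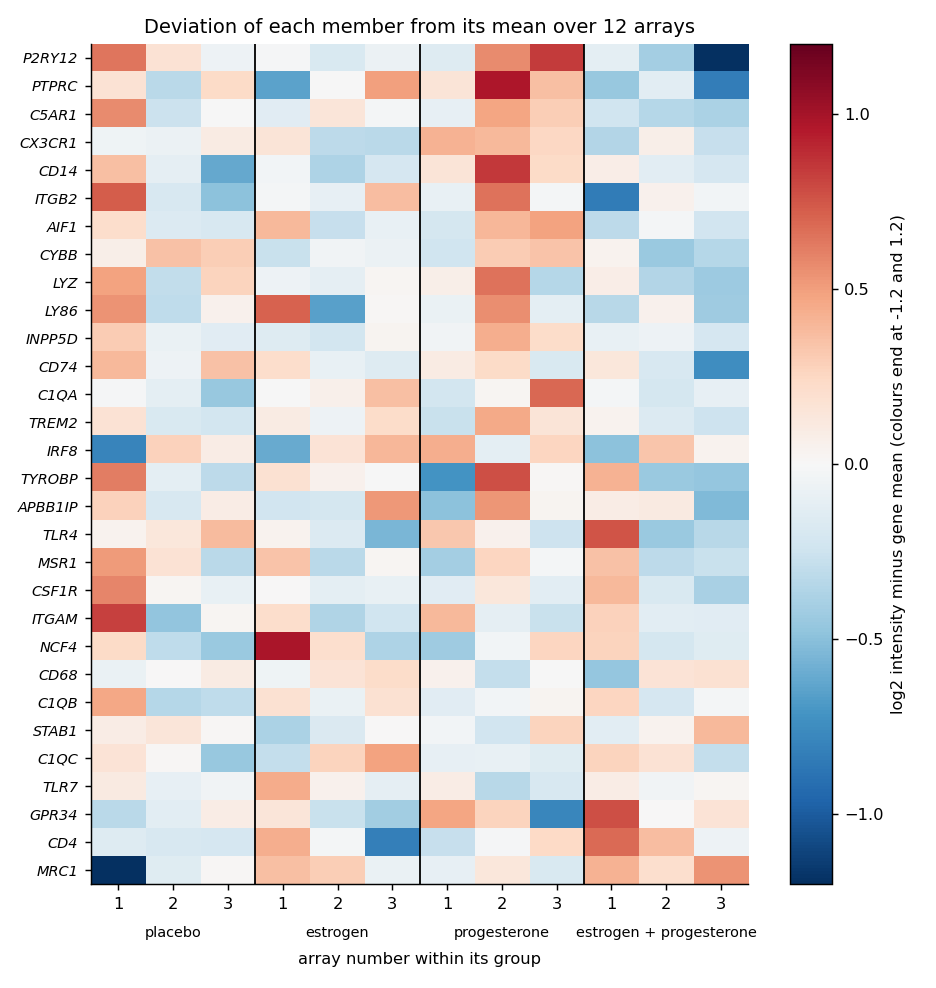
Deviation of the log2 intensity of each of the 30 tested members (rows, ordered by the difference between the combined treatment and progesterone) from its own mean over the 12 arrays (columns, by group). Red is above the mean and blue below, with colours ending at -1.2 and 1.2. The first placebo and second progesterone arrays are red for most rows, and the third array of the combined treatment is blue for most.

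Against placebo, no hormone treatment gave a member that passed the test either. Estrogen gave 17 of 30 members lower (beside 51.3% of all probe sets; median -0.07), progesterone 13 lower and 17 higher (beside 53.3% lower; median 0.06), and both hormones 19 lower (beside 52.1%; median -0.14). The calls over all probe sets were 0% for estrogen, 0.133% for progesterone and 0% for both hormones. At an unadjusted p under 0.05 there was 1 member under estrogen (beside 2.65% of all probe sets), 0 under progesterone (beside 9.87%) and 3 under both hormones (beside 3.85%). Members outside the whole placebo range were 1 above (beside 3.56%) and 3 below (beside 3.98%) for estrogen, 1 above (beside 7.41%) and 0 below (beside 7.86%) for progesterone, and 2 above (beside 4.68%) and 2 below (beside 5.84%) for both hormones. These 3 comparisons share the placebo arrays. The estrogen median turned to 0.08 and that of both hormones to -0.0054 without the first placebo array. The progesterone median turned to -0.04 under median alignment, a setting that shifted the median of all probe sets to -0.12.

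MRC1 was the single member at that level under estrogen, and 1 of the 3 under both hormones. Its placebo values were 8.14, 9.44 and 9.60, so the first placebo array stood far below the rest. The difference from placebo was 0.72 ± 0.32 under estrogen (unadjusted p 0.0449, limma adjusted p 0.9997) and 0.91 ± 0.32 under both hormones (0.0149, adjusted p 0.9988). Without that array the values were 0.25 and 0.45, and the other tested MRC1 probe set gave -0.21 and -0.45. The other 2 were P2RY12, at -0.83 (-1.50 to -0.15), with all arrays of both hormones below placebo, and CYBB, at -0.48 (-0.91 to -0.06), beside -0.06 on its other tested probe set. P2RY12 stood at -0.52 without the third combined-treatment array. Its other tested probe set gave -0.40 (unadjusted limma p 0.223), and there the arrays of both hormones overlapped placebo. Progesterone against placebo gave CX3CR1 at 0.36 (-0.01 to 0.74), the only member whose progesterone arrays lay above the whole placebo range, and CD14 at 0.53 (-0.02 to 1.08).

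The interaction asks whether the 2 hormones together differ from the sum of their single effects. It called 0 of 26383 probe sets (0%) and 0 members, with 6.4% of all probe sets and 0 members at an unadjusted p under 0.05. It was below 0 for 22 of 30 members, beside 47.5% of all probe sets, with a median of -0.17. The median was -0.07 without the second progesterone array, with 18 below 0, -0.11 without the third combined-treatment array, -0.10 without the second placebo array, and -0.27 without the first placebo or the first progesterone array. The lowest p among members was that of PTPRC, at -0.88 (SE 0.44, unadjusted p 0.0692, limma adjusted p 0.783), followed by C1QA at -0.61 (SE 0.32, 0.0792, adjusted p 0.792). For C1QA each hormone alone stood above placebo, by 0.34 under estrogen and 0.36 under progesterone, and both together by 0.09. The other tested C1QA probe set had the opposite signs, at -0.43, -0.35 and -0.32 from placebo and 0.45 for the interaction. That each difference from 1 hormone missed the threshold does not show that the treatments were alike: the 95% confidence interval of a member's difference extended a median of 0.57 to each side, from 0.38 to 0.81.

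Several members are measured by more than 1 probe set, which gives a second reading on the same arrays. The 37 members have 73 probe sets, of which 43 were tested, and 0 of the 43 passed in any of the 6 comparisons. Of 13 tested probe sets beside the brightest, for 12 genes, 6 had the sign of the brightest in the comparison with progesterone and 8 in that with estrogen. For P2RY12 the other probe set read 8.34, 8.03 and 7.24 under both hormones and 8.18, 8.59 and 8.54 under progesterone, a difference of -0.57 ± 0.31 with an unadjusted p of 0.0910. The third array of the combined treatment was the lowest of the 12 on both. For MRC1 the other probe set gave -0.50 where the brightest gave 0.44, and for ITGB2, the beta chain of CR3 and other leukocyte integrins, 1.01 where the brightest gave -0.45. The other AIF1 probe set gave -0.02 and the other C1QA probe set 0.02, with SE of 0.29 and 0.23, beside -0.41 and -0.28 on the brightest. PTPRC had 3 more, all too dim to test (means 3.29 to 3.72).

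**Figure D5:**
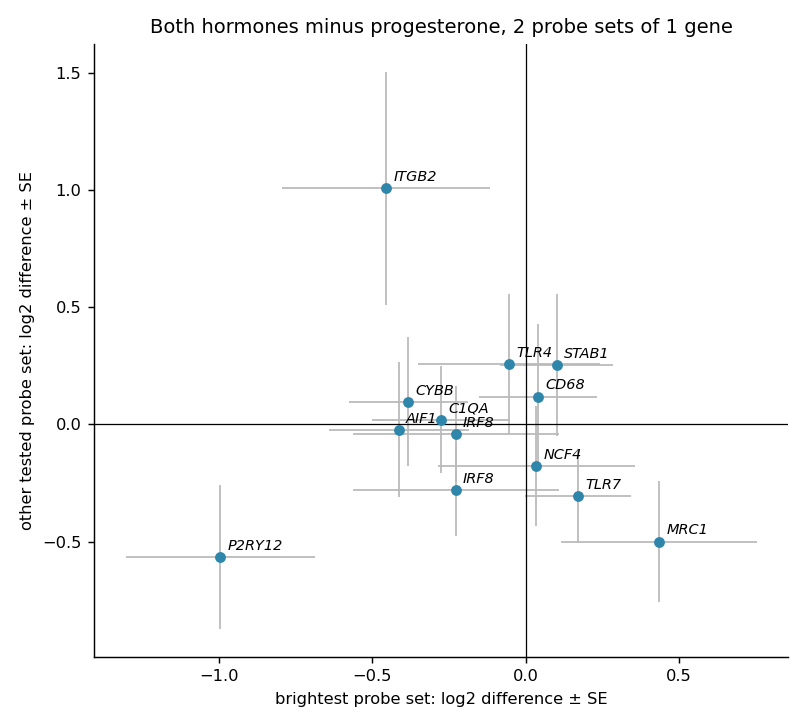
Log2 difference between the combined treatment and progesterone on the brightest probe set of a gene (horizontal) and on another tested probe set of the same gene (vertical), with SE of the limma fit (3 arrays against 3). Of the 13 points, 6 have the same sign on both axes. P2RY12 lies low on both, while MRC1 and ITGB2 have opposite signs.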

How the data were processed

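Dorsal raphe RNA of 12 monkeys in 4 groups of 3 was measured on Affymetrix rhesus arrays. Per the labels' protocols, total RNA was extracted with Trizol, cleaned on RNeasy columns and labelled with biotin by an Enzo kit. The authors deposited linear intensity values, 1 for each probe set, and had scaled each array: its mean without the lowest and highest 2% was 200.0. Their software is not given in the sources. Arrays have no read depth, so the number of arrays limits the precision.

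Of 52865 probe sets, 99 controls were removed. Values under the 5th percentile (intensity 4.99) were raised to it before log2 transformation and quantile normalization, since array medians spanned log2 6.15 to 6.62. The 26383 probe sets with a mean of at least log2 6.31 were tested. The gene table gave 24956 probe sets 1 symbol, 361 several and 27449 none. limma 3.58.1 (lmFit, eBayes) in R 4.3.3 fitted 1 mean per group over all 12 arrays, with 8 residual and 3.54 prior degrees of freedom, two-sided, with Benjamini-Hochberg adjustment over all 26383 and a threshold of 0.05. Steps were tested on simulated data. An exact permutation test of 3 against 3 cannot go below p = 0.1. Figures used matplotlib 3.10.9.

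Same-numbered arrays deviated together in the combined treatment and estrogen (correlations 0.142 to 0.507) and placebo (0.103 to 0.274), all over the limit of 0.1. Some unlike-numbered arrays passed it too (up to 0.267), and the labels name no shared batch, so whether the numbers pair the arrays is not settled. In the combined treatment and progesterone the correlations were -0.26 to -0.08. The reported fit has no block, and a fit with the replicate number as a block was an alternative.

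Named genes were the 6 members of lowest p in each of the 2 main comparisons and AIF1, CSF1R, CX3CR1, P2RY12, C1QA, C1QB, C1QC, CD74, TYROBP and TREM2, 17 in all. The members and lists were chosen with earlier results of these data known. Other genes named were chosen after their values were seen.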

Additional observations from a re-analysis of the deposited data

How the results depend on the processing

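No member passed the test under any of the 8 other settings or the 12 fits that left out 1 array (lowest limma adjusted p 0.137). The counts of probe sets called depended on the setting. Without a filter, estrogen and the combined treatment each gave 1 against placebo. With a filter at the 75th percentile, the combined treatment against progesterone gave 4, and the member median was -0.034 over the 16 members left. With 1 probe set per gene it gave 0, as did progesterone against placebo. With only the arrays of the groups compared they gave 7 and 0. Progesterone against placebo gave 20 with the replicate block, which changed no other count by over 1.5 times and called 0 members, and 13 without the 3 arrays apart, a setting chosen after seeing the data.

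Leaving out 1 array moved the calls from 0 to 1 for the combined treatment against estrogen, from 0 to 42 against progesterone and from 0 to 1 against placebo, from 0 to 1 for estrogen and from 5 to 55 for progesterone against placebo, and from 0 to 4 for the interaction. The member median of progesterone against placebo ran from -0.0087 to 0.22. Of 741 values of named genes under other settings, 718 kept their sign. The other 23 turned. Without the 3 arrays apart they were AIF1 at 0.057, CSF1R at -0.18 and CX3CR1 at 0.21 against estrogen, and C1QB at -0.069 against progesterone. Under median alignment CSF1R was -0.086 against estrogen and 0.056 against progesterone. With 1 array left out, CSF1R ran from -0.22 to 0.17, CX3CR1 from -0.15 to 0.13, C1QB from -0.21 to 0.021 and C1QC from -0.33 to 0.067 against estrogen. Against progesterone CSF1R ran from -0.24 to 0.15, TYROBP from -0.56 to 0.19, C1QB from -0.069 to 0.16, GPR34 from -0.053 to 0.57 and STAB1 from -0.041 to 0.23. The cause was not tested.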

Other observations

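CD47, the surface signal by which cells restrain phagocytes, had a probe set that passed the test under progesterone against placebo, at -1.05 ± 0.16 (SE, limma adjusted p 0.0381). It is not the brightest probe set of the gene, which gave -0.40 (adjusted p 0.638). The call depended on the setting. With only the arrays of these 2 groups, 0 probe sets passed in this comparison. With the replicate block, or without the second placebo array, 0 passed with a lower value, so this CD47 probe set did not pass there. No other tested probe set of a gene in the lists around the members passed in any comparison of the reported fit.

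PLCG2, an enzyme of signalling below TREM2, was lower under progesterone than under placebo (-0.45, limma adjusted p 0.354) and higher under both hormones than under progesterone (0.45, adjusted p 0.305). Both values use the same progesterone arrays. SIGLEC1, a receptor of perivascular and inflamed macrophages, was higher than placebo under progesterone (0.84, adjusted p 0.454) and under both hormones (0.74, adjusted p 0.999). Under estrogen it was also higher, by 0.55 (adjusted p 0.9997). Its placebo values were 7.04, 5.64 and 7.10, so the second placebo array stood far below the rest and enlarged each difference. Of the class II genes, MAMU-DQA1 under both hormones lay furthest from placebo, at -1.10 (adjusted p 0.999). These genes were named after their values were seen, and none passed the test.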
